A study of Mus musculus with 31 samples.

Results

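The genes described here encode subunits of the mitochondrial respiratory chain and of ATP synthase. They were chosen by symbol, as probes whose only gene symbol begins with Nduf, Uqcr, Cox4 to Cox8 or Atp5, or is Sdha, Sdhb, Sdhc or Sdhd. The rule took 75 of the 13872 probes on the array, for 69 of its 10600 gene symbols, and used no measured value. By complex it gave 30 probes for complex I, 5 for proteins that assemble complex I, 2 for complex II, 7 for complex III, 15 for complex IV and 16 for ATP synthase, also called complex V. Ndufs5-ps and Atp5k-ps1 among them are annotated pseudogenes. None of the mitochondrially encoded subunits was found by symbol on the array (0 genes), so every value below is for a nuclear gene.

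The cells were macrophages grown from mouse bone marrow for 8 days in medium conditioned by L929 cells, a source of the growth factor CSF-1. The wild-type donors were C57BL/6J mice, the other donors lacked MyD88, an adaptor protein used by most Toll-like receptors, and all were 6 to 8 weeks old. Cells were kept for 2 hours with re-purified LPS of E. coli O111 at 10 ng/mL, with live E. coli at 1 bacterium per macrophage, or with medium alone (mock). Each array held the stimulated and the mock RNA of a mouse in different dyes, and each of the 4 groups, the 2 genotypes with either stimulus, had 4 mice. The values are log2 ratios, read as stimulated over mock. That direction is likely from the sample names and from the rise of known LPS-induced genes, but the labels do not state it. A positive value is then a transcript that was higher after the stimulus, and a ratio gives no level.

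The respiratory chain sits in the inner mitochondrial membrane. Complex I oxidises NADH and complex II, which is also an enzyme of the tricarboxylic acid cycle, oxidises succinate; both pass electrons through ubiquinone to complex III, then through cytochrome c to complex IV, which reduces oxygen. Complexes I, III and IV pump protons, and ATP synthase makes ATP as the protons flow back. In macrophages stimulated with LPS for many hours, energy metabolism is known to move from respiration towards glycolysis, and succinate oxidation by complex II is a known source of reactive oxygen and of signals for inflammatory gene expression.

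The 31 arrays held between 5564 and 10497 values each, of which 46 to 64 belonged to the chosen probes. The 15 pairs of arrays with swapped dyes correlated at r between 0.256 and 0.710 across probes, and each pair was averaged. Mouse 4 of the MyD88-/- LPS group had 1 array analysed here, an unswapped one, so its values are not dye-pair means. Of 9 macrophage marker genes on the array, such as Csf1r and Cd68, 8 had enough values to be tested; of 5 T-cell markers 1 was, of 6 neutrophil markers 1, of 5 stromal markers none (0), of 3 erythroid markers 2 and of 4 B-cell markers 4. At least 1 response was called for 3 macrophage markers (fitted ratios of the list from -0.58 to 0.31) and 2 B-cell markers (-1.05 to 0.29), and their part in the results below was not tested. The ratios do not show how much of any cell type was present, and less RNA of a gene per cell cannot be told apart from fewer cells that express it. Both RNAs of an array came from the same genotype, so a ratio cannot check the deletion of Myd88. The LPS and E. coli arrays of a mouse may share mock RNA, so the responses to the stimuli are given side by side and their likeness is not tested.

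Of the 75 probes, 49 (48 genes) were measured in 3 or more mice in each group and were tested, among 7325 probes in all. In the wild-type LPS response 2 of the 49 were higher and 2 lower than mock at an adjusted p under 0.05 (limma, Benjamini-Hochberg adjustment over all 7325 probes), beside 17.0% of all probes called in either direction (7.99% higher, 9.04% lower). In the MyD88-/- LPS response 1 was higher and 1 lower, beside 9.98% of all probes (5.28% higher, 4.7% lower). In the wild-type E. coli response 2 were higher and 3 lower, beside 21.2% (9.43% higher, 11.8% lower), and in the MyD88-/- E. coli response 2 were higher and 0 lower, beside 10.8% (6.35% higher, 4.42% lower). At least 1 response was called for 7 of the 49 probes, against 28.4% of all probes tested.

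Most of the tested genes stayed close to the mock level: 43 of 49 probes had ratios within 0.5 of 0 in all 4 responses, against 51.8% of all probes. The fitted log2 ratio lay within 0.5 of 0 for 46 of 49 probes in the wild-type LPS response, where 74.0% of all probes did, and for 46 in the MyD88-/- LPS response, where 78.9% did. For E. coli it did so for 47 of 49 in wild-type cells (71.1% of all probes) and for 47 in MyD88-/- cells (80.3%). The median over the 49 was -0.14 and -0.094 for LPS in wild-type and MyD88-/- cells and -0.078 and -0.078 for E. coli in wild-type and MyD88-/- cells; sets of 4 values below keep this order. The median over all probes was -0.048, -0.051, -0.057 and -0.049. Of the 49, 35, 35, 35 and 33 lay below 0, beside 54.6%, 56.4%, 55.4% and 56.3% of all probes. The member medians moved with the dye orientation: on unswapped arrays alone they were -0.24, -0.037, -0.16 and -0.0040, and 24 of 47 members lay below 0 in the MyD88-/- E. coli response. The medians over all probes tested on those arrays were -0.077, -0.037, -0.13 and -0.059. There the member median was lower than that of all probes in the wild-type responses only. The members' ratios were also measured more tightly than the median probe, with a median standard error of 0.130 (range 0.0967 to 0.404) against 0.203 over all probes.

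**Figure D1:**
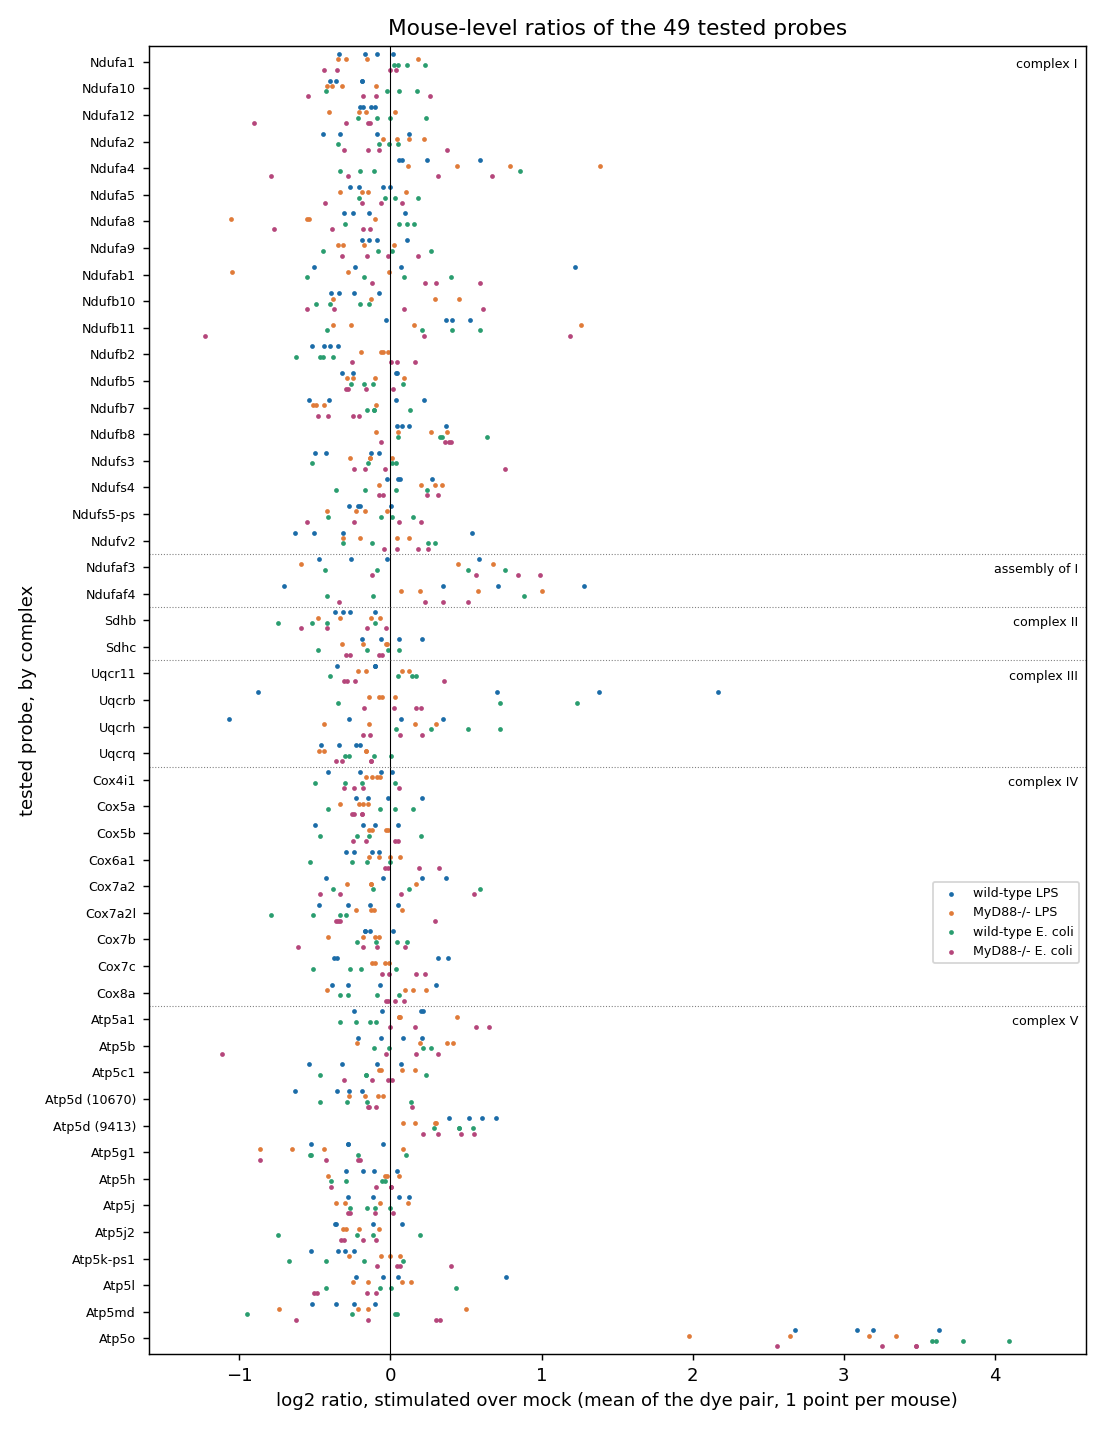
Log2 ratio of stimulated over mock RNA (horizontal axis) for the 49 tested probes (rows, grouped by complex), with 1 point per mouse in the colour of its group. Each point is the mean of the dye pair, or the single value where 1 array of the mouse had one. The points of Atp5o lie between 1.98 and 4.09, to the right of those of nearly every other probe, most of which lie near 0.

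**Figure D2:**
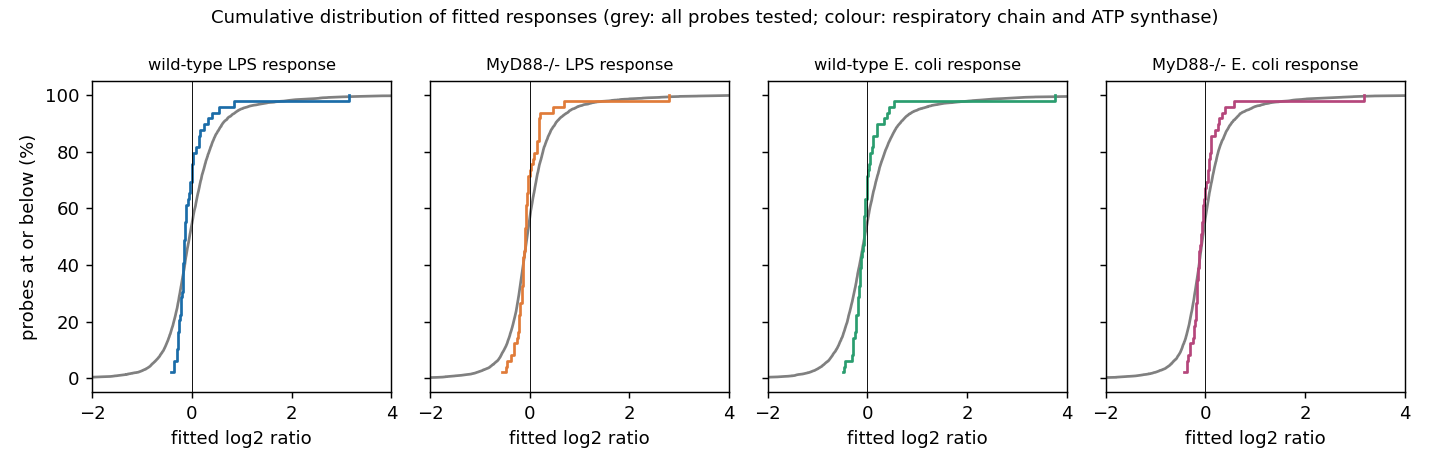
Cumulative share of probes (percent, vertical axis) at or below a fitted log2 ratio (horizontal axis, shown from -2 to 4), with 1 panel per response, all 7325 tested probes in grey and the 49 respiratory chain and ATP synthase probes in colour. The coloured steps climb within a narrower range around 0 than the grey curve, and the last step on the right of each panel is Atp5o.

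The median within a mouse shows how far single cultures differed. Over the tested probes it was -0.23, -0.090, -0.074 and -0.23 in wild-type LPS mice 1 to 4 and -0.10, -0.076, -0.078 and -0.14 in MyD88-/- LPS mice 1 to 4. It was 0.037, -0.30, -0.11 and -0.011 in wild-type E. coli mice 1 to 4 and -0.095, -0.17, -0.076 and 0.041 in MyD88-/- E. coli mice 1 to 4. The groups overlapped. All 8 LPS cultures had a member median below 0, and the median over all tested probes was also below 0 in 7 of these 8, ranging from -0.075 to 0.00084.

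Promoter sequences from RefSeq (build GRCm38.p6) were found for 59 of the member genes. A window from 250 bases before to 30 after each start was searched on both strands. Some genes have more than 1 window, and a gene was counted if any of its windows held the motif. NRF1 and the ETS factor GABP are known activators of respiratory chain genes. The NRF1 motif, GCGCA and GCGC with any single base between them, was present in 13 of the 59 genes (22.0%), against 4.98% of 27025 genes and 6.87% of 17492 coding genes. The ETS motif CCGGAAG was present in 14 (23.7%), against 9.48% of all genes and 12.4% of coding genes. For 3 genes both motifs were found, counted over all windows of the gene. The cyclic AMP response element TGACGTCA was in 4 (6.78%, against 1.99% of all and 2.50% of coding genes), the YY1 motif AAGATGGCG in 1 (1.69%, against 1.22% and 1.53%) and the interferon response motif (GAAA, any 2 bases, GAAA) in 2 (3.39%, against 3.80% and 3.78%). The kappa B consensus, the site of the NF-kappa B factors that LPS activates, was in 1 gene (1.69%, against 4.83% and 5.20%), Sdhb. A match is a description of letters and not of binding.

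The windows of 4 genes that changed and hold a match are shown, with the matches in capitals. In Atp5o (chr16:91931601-91931880, minus strand) and Ndufa8 (chr2:36049309-36049588, minus strand) the capitals mark the NRF1 motif. In Ndufb2 (chr6:39592315-39592594, plus strand) they mark the cyclic AMP response element, and in Sdhb (chr4:140961021-140961300, plus strand) first the kappa B consensus and then the ETS motif. In the windows of Atp5d and Cox7a2l, the other genes with a called response, none of the 6 motifs was found.
Atp5o: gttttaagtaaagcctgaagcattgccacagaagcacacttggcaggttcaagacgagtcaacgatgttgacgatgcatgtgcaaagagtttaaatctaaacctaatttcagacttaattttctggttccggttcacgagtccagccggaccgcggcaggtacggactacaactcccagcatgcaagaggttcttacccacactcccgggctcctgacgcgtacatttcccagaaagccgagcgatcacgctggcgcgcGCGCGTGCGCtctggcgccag
Ndufa8: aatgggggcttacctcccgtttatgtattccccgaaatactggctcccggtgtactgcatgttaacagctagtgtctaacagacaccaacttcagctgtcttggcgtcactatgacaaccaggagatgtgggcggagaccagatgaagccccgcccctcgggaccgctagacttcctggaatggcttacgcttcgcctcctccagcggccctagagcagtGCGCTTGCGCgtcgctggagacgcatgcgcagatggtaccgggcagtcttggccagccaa
Ndufb2: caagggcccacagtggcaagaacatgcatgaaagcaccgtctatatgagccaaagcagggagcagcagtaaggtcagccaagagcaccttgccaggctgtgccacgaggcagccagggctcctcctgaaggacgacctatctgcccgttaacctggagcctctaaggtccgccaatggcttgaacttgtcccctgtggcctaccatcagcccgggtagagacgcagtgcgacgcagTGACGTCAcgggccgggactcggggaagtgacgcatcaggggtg
Sdhb: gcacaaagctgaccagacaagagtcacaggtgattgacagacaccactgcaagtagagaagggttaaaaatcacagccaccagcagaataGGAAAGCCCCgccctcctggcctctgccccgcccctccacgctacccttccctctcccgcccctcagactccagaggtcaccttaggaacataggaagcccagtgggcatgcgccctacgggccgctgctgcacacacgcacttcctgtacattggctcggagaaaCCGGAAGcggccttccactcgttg

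Atp5o, the subunit OSCP that joins the catalytic head of ATP synthase to its peripheral stalk, was the exception among these genes. Its log2 ratios (probe 8237) were 3.08, 3.20, 3.63 and 2.68 in wild-type mice after LPS and 1.98, 3.17, 3.35 and 2.64 in MyD88-/- mice after LPS. After E. coli they were 3.61, 3.79, 4.09 and 3.58 in wild-type mice and 2.55, 3.25, 3.48 and 3.48 in MyD88-/- mice. Every mouse was far above 0, and all 31 arrays were, from 1.93 to 4.51, with medians of 3.66 on the 15 swapped and 3.18 on the 16 unswapped arrays. The fitted ratios of 3.15, 2.78, 3.77 and 3.19 (SE 0.21, n = 4 mice each) correspond to 8.86-fold, 6.89-fold, 13.6-fold and 9.14-fold higher RNA than mock. The limma adjusted p was 8.46e-08, 4.48e-07, 7.51e-09 and 1.07e-07, and Atp5o ranked 40, 48, 40 and 30 from the highest of the 7325 probes. It was called in all 4 responses under each alternative processing tried.

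Atp5o was the only probe of ATP synthase with a ratio of that size. The other 12 tested probes of the complex ranged from -0.47 to 0.55 over the 4 responses. Its direct partners in the peripheral stalk had dye-pair means near 0, with Atp5h (subunit d) at -0.14, -0.10, -0.19 and -0.12 and Atp5j (subunit F6) at -0.06, -0.15, -0.13 and -0.16. Their medians over swapped, then unswapped, arrays were -0.29 and -0.038 (Atp5h) and 0.093 and -0.32 (Atp5j). Of the tested genes near Atp5o in RefSeq gene order none was called higher. Itsn1 was at -0.10, -0.21, -0.43 and -0.29, Mrps6 at -0.56, -0.08, -0.14 and 0.82 and Kcne1 at 1.09, -0.04, 0.74 and -0.16, with no call. Donson fell by 0.69 (adjusted p = 0.0491) and by 0.90 (adjusted p = 0.01) in the wild-type LPS and E. coli responses and stood at 0.01 and -0.16 in MyD88-/- cells. A single probe stands for Atp5o, and the spotted sequence was not analysed here.

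The genotype difference of Atp5o, MyD88-/- minus wild type, was -0.36 (SE 0.30, limma adjusted p = 0.762, 95% interval -1.01 to 0.28) for LPS and -0.58 (SE 0.30, adjusted p = 0.429, interval -1.22 to 0.068) for E. coli. After E. coli the 4 wild-type mice all lay above the 4 MyD88-/- mice, while after LPS the genotypes overlapped. The E. coli ratio exceeded the LPS ratio by 0.62 in wild-type (adjusted p = 0.999) and by 0.41 in MyD88-/- cells (adjusted p = 1). None of these 4 differences was past the threshold.

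Atp5d, the delta subunit in the central stalk of ATP synthase, was measured by 2 probes that disagreed in sign. Probe 9413 gave 0.52, 0.70, 0.60 and 0.39 in wild-type mice and 0.30, 0.29, 0.16 and 0.09 in MyD88-/- mice after LPS, and 0.55, 0.29, 0.45 and 0.45 in wild-type and 0.22, 0.47, 0.56 and 0.31 in MyD88-/- mice after E. coli. All 16 values were above 0, and the genotypes did not overlap for LPS. The fitted ratios were 0.55 (limma adjusted p = 0.00108), 0.21 (0.234), 0.44 (0.00534) and 0.39 (0.0183), with an SE of 0.10. Probe 10670 gave -0.28, -0.63, -0.19 and -0.36 in wild-type and -0.28, -0.08, -0.05 and -0.17 in MyD88-/- mice after LPS, and its fitted ratios were -0.36 (SE 0.12, adjusted p = 0.0413), -0.14, -0.19 and -0.06. No direction is therefore given for the gene. On unswapped arrays alone the 3 calls of probe 9413 were lost, at 0.35 (adjusted p = 0.064), 0.36 (0.0825) and 0.26 (0.147) in wild-type cells after LPS and E. coli and in MyD88-/- cells after E. coli, and the last was also lost without MyD88-/- E. coli mouse 2 (0.0912) or mouse 3 (0.113). The fall of probe 10670 was lost in 15 of 23 alternatives, among them the omission of any mouse of the LPS groups, at adjusted p between 0.0504 and 0.206.

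The catalytic head of ATP synthase did not pass the test in any response. Atp5a1 (alpha subunit) was at 0.03, 0.15, -0.20 and 0.34, Atp5b (beta subunit) at 0.00, 0.19, 0.09 and -0.16 and Atp5c1 (gamma subunit, the rotating shaft) at -0.22, 0.03, -0.14 and -0.11. The dye orientations of Atp5c1 differed in sign, with a median of 0.094 over swapped and -0.18 over unswapped arrays. Atp5g1, which encodes the c subunit of the membrane rotor, had the lowest mean of the complex at -0.28, -0.47, -0.29 and -0.43, with adjusted p of 0.266, 0.089, 0.232 and 0.119. Without MyD88-/- LPS mouse 2 its MyD88-/- LPS value was -0.65 and past the threshold, as was the -0.59 of the unswapped arrays alone.

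**Figure D3:**
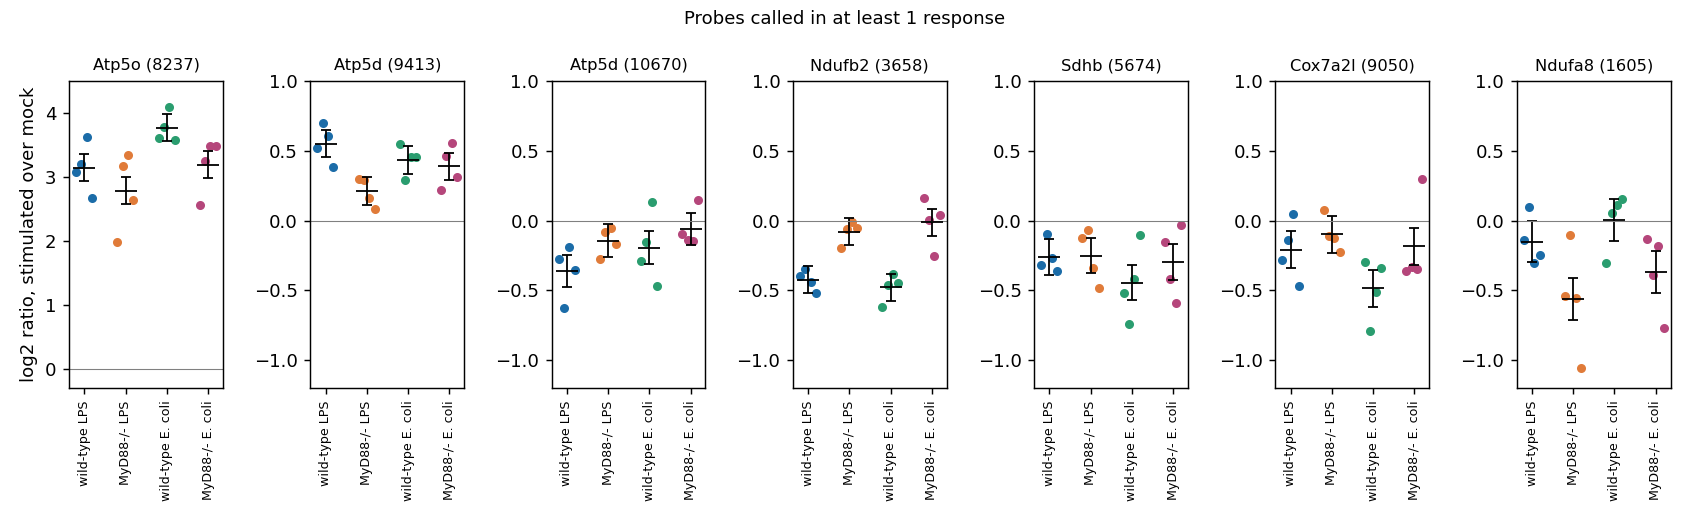
Log2 ratio of stimulated over mock RNA (vertical axis) in each mouse (points) and the fitted value with its standard error (bars) for the 7 probes called in at least 1 response, by group; the Atp5o panel has its own axis range. Atp5o lies near 3 in all 4 groups, the fitted values of the Atp5d probes lie on opposite sides of 0, and Ndufb2 lies below 0 in the wild-type groups.

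In complex I, 19 of 30 probes were tested and Ndufb2 and Ndufa8 were the only genes called. Ndufb2, an accessory subunit of the membrane arm, was at -0.40, -0.35, -0.44 and -0.52 in wild-type mice and -0.20, -0.06, -0.01 and -0.05 in MyD88-/- mice after LPS. After E. coli it was at -0.62, -0.47, -0.38 and -0.45 in wild-type and 0.16, 0.00, -0.25 and 0.04 in MyD88-/- mice. The wild-type mice lay below the MyD88-/- mice with no overlap for both stimuli. The fitted ratios were -0.43 (limma adjusted p = 0.0062) and -0.48 (0.00218) in wild-type cells and -0.08 (0.697) and -0.01 (0.968) in MyD88-/- cells after LPS and E. coli, with an SE of 0.10. The genotype difference itself was 0.35 (SE 0.14, adjusted p = 0.488, 95% interval 0.054 to 0.64) for LPS and 0.47 (SE 0.14, adjusted p = 0.137, interval 0.18 to 0.76) for E. coli. Both intervals leave out 0 before adjustment, and neither difference passed the test over all probes, although they had the smallest adjusted p of the 49. In a fit on its own group alone the wild-type calls were lost, at adjusted p of 0.0889 for LPS and 0.0756 for E. coli.

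Ndufa8, an accessory subunit of complex I, fell in MyD88-/- cells after LPS. Its values there were -0.54, -0.10, -0.55 and -1.06, and those of wild-type mice were -0.14, 0.09, -0.31 and -0.25, so the genotypes overlapped. The fitted ratio was -0.56 (SE 0.15, limma adjusted p = 0.0239) in MyD88-/- and -0.15 (0.552) in wild-type cells, and the difference of -0.41 had an adjusted p of 0.606. After E. coli the fitted ratios were 0.00 in wild-type and -0.37 (adjusted p = 0.148) in MyD88-/- cells. The call rested on MyD88-/- LPS mice 1, 3 and 4: without mouse 4 the ratio was -0.40 (adjusted p = 0.178), and without mouse 1 or mouse 3 the adjusted p was 0.0788. The value of mouse 4, -1.06, came from 1 unswapped array and is not a dye-pair mean. Over all groups the Ndufa8 median was -0.11 on swapped and -0.25 on unswapped arrays.

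The core subunits of complex I that carry redox centres or bind near them stayed near 0, with Ndufv2 at -0.23, -0.09, 0.03 and 0.11 and Ndufs3 at -0.28, -0.13, -0.16 and 0.08. Ndufs4, an accessory subunit whose loss causes a mitochondrial disease in mice and humans, was at 0.09, 0.19, -0.06 and 0.11. The assembly factor Ndufaf4 had the highest mean of the complex I group at 0.41, 0.46, 0.12 and 0.19, and was not called. Ndufa4, first described with complex I and now counted with complex IV, was at 0.24, 0.68, 0.05 and -0.02. Its MyD88-/- LPS ratio had an adjusted p of 0.102 and passed on unswapped arrays alone (1.00) and with arrays centred and scaled (0.72).

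Of complex II, Sdhb, the iron-sulfur subunit of succinate dehydrogenase, was below mock in all 16 cultures. Its values were -0.32, -0.10, -0.27 and -0.36 in wild-type and -0.13, -0.07, -0.34 and -0.48 in MyD88-/- mice after LPS, and -0.52, -0.74, -0.42 and -0.10 in wild-type and -0.15, -0.42, -0.59 and -0.03 in MyD88-/- mice after E. coli. The groups overlapped throughout. A fitted ratio below 0 in all 4 responses was shared by 22 of the 49 members, beside 27.0% of all probes tested. Of the Sdhb fitted ratios of -0.26, -0.25, -0.45 and -0.30 (SE 0.13), that of wild-type cells after E. coli was called (limma adjusted p = 0.0196), and the others had adjusted p of 0.184, 0.265 and 0.172. The call was lost without wild-type E. coli mouse 1 (0.0706), mouse 2 (0.11) or mouse 3 (0.0533). The genotype difference was between -0.37 and 0.39 for LPS and between -0.23 and 0.53 for E. coli (95% intervals). Sdhc, a membrane anchor of the complex, was at 0.00, -0.14, -0.15 and -0.17. Its median was 0.011 over swapped and -0.32 over unswapped arrays.

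In complex III no probe was called among the 4 tested. Uqcrb, a small subunit near the ubiquinone site, was the most variable, with -0.88, 1.38, 2.17 and 0.71 in wild-type mice after LPS against -0.14, 0.03, -0.06 and -0.08 in MyD88-/- mice. The wild-type values spanned both sides of the MyD88-/- values. Uqcrb had a value on 19 of the 31 arrays, the fewest of any tested member, and in 3 wild-type mice after E. coli. Most of its mouse values therefore came from a single array. Its fitted ratios were 0.84 (limma adjusted p = 0.122), -0.06, 0.54 and 0.05, and without wild-type LPS mouse 1 the first was 1.42 and past the threshold. Uqcrq, another small subunit, had the lowest mean at -0.31, -0.31, -0.17 and -0.24, with adjusted p of 0.054 and 0.078 after LPS. It was called in wild-type LPS cells under 4 alternatives, among them the filter that asks for values in all 4 mice (-0.31) and the unswapped arrays (-0.50).

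In complex IV, 9 of 15 probes were tested and Cox7a2l was the only gene called. Cox7a2l, also named SCAF1, is known to tether complexes III and IV in supercomplexes, and C57BL/6 mice carry a short form of it. Its values were -0.28, -0.14, 0.05 and -0.47 in wild-type and 0.08, -0.11, -0.13 and -0.23 in MyD88-/- mice after LPS. After E. coli they were -0.30, -0.79, -0.52 and -0.34 in wild-type and -0.36, -0.33, -0.35 and 0.30 in MyD88-/- mice. All 4 wild-type mice were below 0 after E. coli, and MyD88-/- mouse 4 was apart from its group. The fitted ratios were -0.21, -0.10, -0.48 (SE 0.13, limma adjusted p = 0.0163) and -0.19, with adjusted p of 0.321, 0.739 and 0.462 for the others. The call was lost without wild-type E. coli mouse 2 (0.0958) or mouse 3 (0.0554).

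Several subunits of complex IV exist as a form found in most tissues and a form of heart and skeletal muscle. The common forms were measured on most arrays and their dye-pair means lay near 0: Cox6a1 at -0.18, -0.04, -0.24 and 0.11, Cox7a2 at 0.02, -0.09, 0.05 and -0.04 and Cox8a at -0.11, 0.01, -0.16 and 0.02. The dye orientations differed in sign. Medians over swapped, then unswapped, arrays were -0.15 and 0.027 (Cox6a1), -0.29 and 0.066 (Cox7a2) and -0.34 and 0.24 (Cox8a). Their muscle partners had too few values to be tested. Cox6a2 had a value on 16 of the 31 arrays, the probes of Cox7a1 on 7 and 8, and Cox8b on 7. Too few values also kept out common subunits, with Cox6b1 on 12 arrays and Cox6c on 13, so a missing value does not mark an absent transcript. Cox4i1 was at -0.17, -0.11, -0.24 and -0.17 and Cox7b at -0.11, -0.19, -0.04 and -0.20.

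The 26 probes that were not tested stand for 23 genes, 21 of them with no tested probe, such as Ndufa13, Uqcrfs1 (the Rieske iron-sulfur protein), Uqcrc1 and Atp5e. They had values on 1 to 20 arrays (median 8.5), while tested members had values on 19 to 31 (median 31). Their 198 mouse values had a median of 0.10 and quartiles of -0.55 and 0.70.

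The genotypes and the stimuli were then compared directly. By limma no member was called (0 of 49) in the genotype difference for LPS, where 0.287% of all probes were, or for E. coli, where 0.751% were. No member was called (0) in the stimulus difference within either genotype or in the interaction, where 0.0% of all probes were. At an unadjusted limma p under 0.05 there were 2 members for LPS (Ndufb2 and Atp5d probe 9413), 4.08% of members beside 8.91% of all probes (653). For E. coli there were 4 (Ndufb2, Cox6a1, Atp5a1 and Atp5k-ps1), 8.16% beside 13.3% (974). There was 1 for the stimulus difference in wild-type cells (Uqcrh), 2.04% beside 4.05% of all probes (297). There were 0 beside 2.42% (177) in MyD88-/- cells and 0 beside 2.99% (219) for the interaction. Member values ranged from -0.91 (Uqcrb, with values on 19 arrays) to 0.44 (Ndufa4) in the genotype difference for LPS and from -0.58 (Atp5o) to 0.54 (Atp5a1) for E. coli.

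The genotypes did not overlap for 2 of 49 members after LPS (Ndufb2 and Atp5d probe 9413), beside 6.68% of all probes. After E. coli they did not for 4 (Ndufb7, Ndufb2, Atp5o and Atp5a1), beside 9.08%. Atp5a1 and Ndufb2 were higher, and Ndufb7 and Atp5o lower, in MyD88-/- cells, and none of these differences was called over all probes.

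Other mitochondrial genes give the setting. In these lists each gene was read from 1 probe, the tested probe with values on the most arrays, and its other probes were not read. Counts in the lists are therefore of genes, while those of the members are of probes. Sod2, the mitochondrial superoxide dismutase, rose by 2.78, 2.80, 2.90 and 2.71 (SE 0.16, limma adjusted p between 7.28e-09 and 3.85e-08), and it was the only one of 7 tested mitochondrial antioxidants called in all 4 responses. Txnrd2 of that list was called in the wild-type LPS response (0.49). Among 8 tested regulators of mitochondrial biogenesis, Ssbp1, which coats mitochondrial DNA, rose by 1.25, 1.21, 1.36 and 1.24. Ppargc1a, a coactivator of respiratory chain genes, was at 0.29, -0.05, -2.10 and 1.09, called in wild-type cells after E. coli (adjusted p = 0.00377), and its genotype difference for E. coli was 3.18 (SE 0.56, adjusted p = 0.0205). Its ratios were loosely measured, with SE of 0.42, 0.42, 0.42 and 0.37 against a median of 0.203 over all probes. Single-gene results of the alternative processings are given for member genes only, so these Ppargc1a calls have no such check. Tfb2m fell by 0.41 in wild-type cells after E. coli. In the wild-type LPS, MyD88-/- LPS and MyD88-/- E. coli responses it was at -0.09, -0.14 and -0.27, not called.

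Assembly factors that the rule does not cover had 1, 0, 1 and 0 genes higher and 3, 2, 1 and 3 lower among 10 tested. No genotype difference was called in this list (0 higher and 0 lower for either stimulus). Coa3, a factor for complex IV, fell by 0.51, 0.73 and 0.62 in the wild-type LPS, MyD88-/- LPS and MyD88-/- E. coli responses. Its wild-type E. coli value of -0.38 fell short of the threshold (limma adjusted p = 0.0992). Coa7 fell by 0.79 and 0.83 in the wild-type LPS and E. coli responses, and Nubpl, which delivers iron-sulfur clusters to complex I, fell by 0.61, 0.50 and 0.45 in the responses in which Coa3 was called. The values not called were -0.47 and -0.27 for Coa7 in MyD88-/- cells after LPS and E. coli. For Nubpl the value not called was -0.22, in wild-type cells after E. coli. Ttc19, a factor for complex III, rose by 0.57 and 0.56 in the wild-type LPS and E. coli responses. In MyD88-/- cells it stood at a similar 0.49 and 0.55, short of the threshold (limma adjusted p = 0.0927 and 0.0533). Tmem70, a factor for ATP synthase, fell by 0.38 in MyD88-/- cells after E. coli and was at -0.16 in wild-type cells, not called. After LPS it was at -0.11 in wild-type and -0.30 in MyD88-/- cells, not called.

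Cytochrome c and the mobile carriers had 0, 0, 1 and 0 genes higher and 1, 0, 2 and 1 lower among 8 tested. Cyc1, the cytochrome subunit of complex III whose symbol the rule does not match, rose by 0.42 in wild-type cells after E. coli (adjusted p = 0.02). In MyD88-/- cells after E. coli it stood at 0.35, short of the threshold (limma adjusted p = 0.081). After LPS it stood at 0.33 in wild-type cells (adjusted p = 0.0739) and at 0.16 in MyD88-/- cells (0.484), also short of it. Etfdh, which feeds electrons from fatty acid oxidation into ubiquinone, fell by 0.46, 0.42 and 0.50 in wild-type cells after LPS and E. coli and in MyD88-/- cells after E. coli, and Etfa fell by 0.55 in wild-type cells after E. coli. Etfdh was at -0.21 in MyD88-/- cells after LPS, not called. In the wild-type LPS, MyD88-/- LPS and MyD88-/- E. coli responses Etfa was at -0.40, -0.35 and 0.04, not called. Among 6 carriers and porins 1 was called, the ADP/ATP carrier Slc25a5, which fell by 0.42 in wild-type cells after LPS. In MyD88-/- cells after LPS it was at -0.32, not called (limma adjusted p = 0.126). After E. coli it was at -0.21 in wild-type cells (0.245) and at -0.36 in MyD88-/- cells (0.0808), also not called. Among 13 genes of the tricarboxylic acid cycle and pyruvate dehydrogenase 1 was called, Cs (citrate synthase), which fell by 0.46 in wild-type cells after E. coli, and among 16 import genes 1, Timm10, which rose by 0.79 in that response. In the wild-type LPS, MyD88-/- LPS and MyD88-/- E. coli responses Cs was at -0.25, -0.09 and 0.15, not called. In the same responses Timm10 was at 0.48 (limma adjusted p = 0.0901), 0.14 and 0.04, not called.

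Mitochondrial ribosomal proteins had medians of -0.16, -0.14, -0.076 and -0.11 over 48 tested genes, 1 gene higher in each response and 4, 4, 4 and 3 lower. The gene that rose was Mrpl52 (1.12, 0.95, 1.25 and 1.07), and Mrps15 fell in all 4 (by 0.62, 0.60, 0.69 and 0.69). The 50 tested cytosolic ribosomal proteins had medians of -0.098, -0.041, -0.10 and -0.073, with 1, 2, 1 and 1 higher and 0, 0, 1 and 0 lower. Rpl39l was higher in all 4, at 6.70, 3.90, 8.12 and 3.77, and Rps26 (0.48) and Rpl26 (-0.64) were each called in 1 response. The genotype difference of Rpl39l was -4.35 for E. coli (SE 0.57, limma adjusted p = 0.00081) and -2.80 for LPS (adjusted p = 0.0582). The spotted sequence of its probe was not analysed here.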

How the data were processed

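For each spotted array the authors deposited log2 ratios between its 2 channels, normalized in a way not given in the sources used here. Slides were quantified with GenePix Pro 3.0 and analysed in BASE and GeneSpring, per the labels. Ratios at the floor of log2(0.01), -6.64, were taken as missing (4333 of 265421), and the dye pair of each mouse was averaged. Where 1 array of a mouse had a value, that value was kept. A model with 1 coefficient per group was fitted to all 7325 probes with values in at least 3 of 4 mice of every group (limma 3.58.1, R 4.3.3; figures with matplotlib 3.10.9), 2-sided, with Benjamini-Hochberg adjustment over these probes and a call at an adjusted p under 0.05. Arrays give no depth, and 4 mice per group limit the precision.

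The probe table pairs 11480 probes with 1 symbol, 50 with several and 2342 with none; no probe with several matched the rule (0). The members and gene lists were chosen with earlier results of these data known. Genes are named where called (lists of other genes: up to 3 per response by adjusted p, each then given in every response in which it was called), as the highest or lowest mean of a complex, or as paired isoforms; others were named after their values were seen. Alternatives covered the floor, array centring and scaling, the filter, dye orientation, the samples in the fit and each mouse left out. The labels number mice alike across the stimuli of a genotype; same-numbered mice correlated at -0.057 to 0.14 in 8 pairs after the group means were removed. The fitting step was tried on simulated mouse-level values with independent noise. That simulation held no dye effect and no shared mock RNA, so it cannot show how the fit behaves with them.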

Additional observations from a re-analysis of the deposited data

Results flagged for a closer look

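Of 74 groups of 4 mice checked for a mouse far from the others, 1 had such a mouse, and chance gives about 1 in 20. Cox7a2l was at 0.30 in mouse 4 of the MyD88-/- E. coli group, while the other 3 mice lay between -0.36 and -0.33.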

How the results depend on the processing

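No called value of a named member changed sign in any alternative. In a fit on the groups compared alone, Atp5o was the only member called in each response, so the counts became 1, 1, 1 and 1 in place of 4, 2, 5 and 2 (653, 417, 848 and 436 of all probes in place of 1247, 731, 1554 and 789; 15 and 32 in place of 21 and 55 in the genotype differences for LPS and E. coli); this fit has fewer samples. The MyD88-/- LPS count was 5 with arrays centred and scaled and 4 on unswapped arrays alone. The wild-type LPS calls, 2 higher and 2 lower, became 1 higher and 5 lower on unswapped arrays and 2 higher and 4 lower with values in all 4 mice, and the MyD88-/- E. coli calls, 2 higher and 0 lower, became 1 and 1 on unswapped arrays; the cause was not tested. With each mouse left out in turn the counts ranged from 3 to 5, 1 to 3, 3 to 5 and 1 to 2. The MyD88-/- LPS count was 1 without mouse 1, 3 or 4 of that group, the wild-type E. coli count 3 without mouse 3 and the MyD88-/- E. coli count 1 without mouse 2 or 3. On unswapped arrays the member medians were -0.24, -0.037, -0.16 and -0.0040 in place of -0.14, -0.094, -0.078 and -0.078, and that of MyD88-/- LPS cells was -0.064 with arrays centred. With each mouse left out it ranged from -0.16 to -0.11, -0.094 to -0.088, -0.14 to -0.030 and -0.13 to -0.028. Over all probes, the genotype differences had 35 and 86 calls when values in all 4 mice were needed and 12 and 24 on unswapped arrays. With the mouse number as a replicate block, 0 members were called in the stimulus differences and the interaction, as without it. Of the values of named members in the responses and genotype differences, 2348 kept their direction and their side of the threshold, 72 that were called in neither setting changed sign (18 of them on unswapped arrays), 36 lost a call and 10 gained it.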
